A study of Mus musculus with 12 samples.

Results

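The 25 genes described here are protein-coding genes with a symbol ending in Rik, the provisional name that RIKEN cDNA clones carry until a gene receives a proper one, that were nearly silent in the mouse testis up to PND (postnatal day) 21 and abundant at PND 28. They were chosen by the measured levels themselves, as the Rik genes under 5 CPM (counts of a gene per 1000000 counts on all genes of that mouse) in each mouse of PND 7, 14, 17 and 21 and at least 25 CPM in both PND 28 mice. The limits were met by 25 of 1445 protein-coding Rik genes, among 22380 protein-coding and 37675 listed genes. Because the levels in all 10 mice entered the choice, the levels of the 25 genes are given as a description and carry no test.

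Ribosome-depleted total RNA from whole testes of C57BL/6NHsd mice was sequenced on the SOLiD 4 platform at 5 ages (PND 7, 14, 17, 21, 28), with 2 untreated mice per age and 10 mice in all. Each PND 7 mouse was split over 2 barcodes, which were summed, so that 12 libraries were available. The counts on genes ran from 3994026 to 13559548 per mouse, so 1 gene with 3 counts stood at 0.221 to 0.751 CPM depending on the mouse. Whether strand was used in counting was not given in the sources used here, so reads from genes overlapping on opposite strands cannot be separated. Where genes overlap on the same strand, strand would not separate their reads in any case. In whole testis fewer cells of a type and less RNA per cell cannot be told apart.

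In the first wave of spermatogenesis germ cells advance in near synchrony, from spermatogonia through meiotic spermatocytes to haploid round spermatids and then elongating spermatids, which build the acrosome and the flagellum and replace their histones with transition proteins and protamines. Transcription stops as the chromatin condenses, so transcripts of late spermatids are made in round and early elongating cells and stored. Many genes used at this stage have testis-restricted expression, and several were long known only from cDNA clones.

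The libraries held the markers of testis: 7 Sertoli cell markers summed to 820 and 661 CPM at PND 7 and 222 and 240 CPM at PND 28, and 6 spermatid markers went from 2.49 and 6.68 CPM to 4326 and 5181 CPM. Markers of Leydig cells, the androgen-producing cells between the tubules, summed to 154 and 360 CPM at PND 21 and to 922 and 723 CPM at PND 28, the step at which the 25 genes were chosen to differ; their part in the levels was not tested.

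In 3 mice some transcripts stood apart from the other mouse of that age. The 8 epididymis markers summed to 187 CPM in PND 17 mouse 1 and 66.4 CPM in PND 7 mouse 2, nearly all of it Crisp1 (179 and 66.2 CPM), against 0.751 and 0.621 CPM in the other mouse of each age and 13.8 and 6.41 CPM at PND 28. Without the one mouse or the other the limits again selected 25 genes. In PND 14 mouse 1 the protamine transcript Prm1 was at 61.4 CPM, against 1.12 CPM in PND 14 mouse 2, and Tnp1, a transition protein transcript, was at 64.8 against 2.09 CPM. All 7 chromatin genes of elongating spermatids on a list of 53 late spermatid genes were more than 2-fold higher in PND 14 mouse 1 than in mouse 2, as were 12 of 17 tail, 5 of 8 kinase and phosphatase, 4 of 11 acrosome and 1 of 10 transcription factor genes (29 of 53 in all). The acrosome genes summed to 160 CPM in mouse 1 and 213 CPM in mouse 2, and the kinases and phosphatases to 144 and 191 CPM. The selection, the median PND 28 level and the counts of list genes called are therefore given with and without PND 14 mouse 1. Calls by group of the list are given only with it. The source of this signal was not tested.

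Of the 25 genes, 17 carry another symbol in the RefSeq annotation of a later assembly (GRCm38.p6) and 8 are still listed under the Rik symbol. For 2 of them, 4930479M11Rik (now Pmis2) and 4930584F24Rik, RefSeq lists a long non-coding RNA, whereas the annotation used for counting called both protein-coding. The genes lie on 15 chromosomes, 24 of them on autosomes and 1 on X. Their number of exons ran from 1 to 19 with a median of 5, against 10 over all protein-coding genes. The longest coding sequence of each encoded 86 to 958 residues (median 180), against a median of 377 over 22363 protein-coding genes and 320 over the 56 genes without a Rik symbol that met the same limits. Proteins under 150 residues made up 11 of the 25 (44%), 19.6% of those 56 genes and 11.7% of protein-coding genes. The 11 include 4930479M11Rik (96 residues) and 4930584F24Rik (120 residues), the 2 that RefSeq lists as non-coding. The share over all protein-coding Rik genes was not computed, so whether short length goes with the Rik name was not tested.

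**Figure D1:**
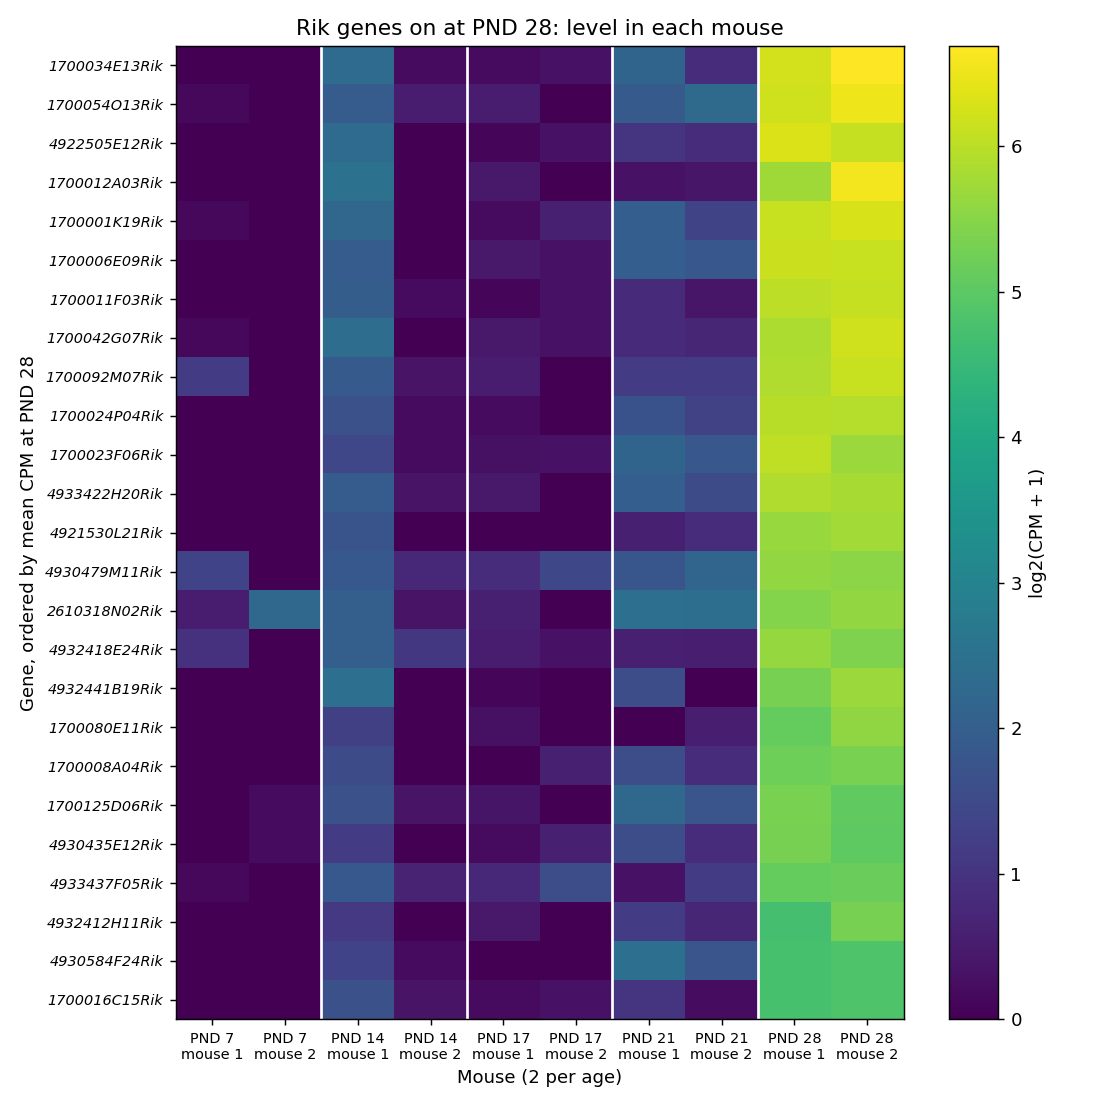
Level of the 25 Rik genes (rows, ordered by mean level at PND 28) in each of the 10 mice (columns), coloured by log2(CPM + 1). Both PND 28 columns are bright, as the selection requires, and PND 14 mouse 1 is brighter than PND 14 mouse 2 in all 25 rows.

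The sequences before the gene starts are shown first, because 8 of the 25 genes held the same short word there, on 1 strand or the other. The cAMP response element, TGACGTCA, is the site of the CREM family of activators, which act in round spermatids; it is rich in the CpG dinucleotide. That word was in none of the 25 start windows (250 bases before to 50 after the annotated start, mm9), against 2.32% of all 22380 protein-coding genes. It was in 1.79% of the 56 genes without a Rik symbol that met the same limits and in 0.662% of protein-coding genes with at most 6 CpG. Shares this small can give none among 25 genes, so nothing is read from the absence. Reading the sequences showed a related word without a CpG, TGACATCA, which was then counted in all windows on both strands. TGACATCA was present in 8 of 25 genes (32%), against 3.03% of all protein-coding genes, 4.98% of all protein-coding Rik genes and 2.73% of the 5779 protein-coding genes with at least 25 CPM in both PND 28 mice. The word was noticed in these sequences and looked for afterwards, so the share is a description with no test.

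The same word was counted in genes in which it had not been noticed. It was in 8 of the 56 genes without a Rik symbol at the same limits (14.3%), and in 64 of 372 other protein-coding genes with at least 25 CPM in both PND 28 mice and a mean there at least 4 times that at PND 21 (17.2%). In protein-coding genes with at most 6 CpG in the window, the range in which most of the 25 genes fell, the share was 5.67% of 8461. Of the 20 Rik genes already on by PND 14 (under 5 CPM in both PND 7 mice and at least 25 CPM in both PND 14 mice), 1 (5%) held it. Only 2 Rik genes were on at PND 21 (under 5 CPM in each earlier mouse and at least 25 CPM in both PND 21 mice), of which 1 held it, with 2 and 5 CpG in their windows. All 9 copies in the 25 genes lay between 90 and 22 bases before the start. The last 100 bases also held all 9 copies in the 56 genes and 86.6% of the 67 copies in the 372 genes. They held 74.9% of copies in genes with at least 25 CPM in both PND 28 mice and 73.2% in all protein-coding Rik genes. Over all protein-coding genes they held 54.7% of 750 copies. A match is a stretch of letters and was not shown to be bound by any factor.

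A second word of this shape, TGACCTCA, was in 3 of 25 genes (12%) against 1.78% of all, and the pattern TGACNTCA, which covers both words and the response element itself, was in 11 (44%) against 8.24%. In the 56 genes without a Rik symbol at the same limits the shares were 14.3% and 33.9%, and in the 372 other genes 6.99% and 29.0%. The 100 bases before the start are given for 7 of these 11 genes, those on other chromosomes than 18 whose stretch overlaps no other annotated gene, with TGACNTCA in either direction in capitals, 5′ to 3′ along the gene's strand.
1700012A03Rik, chr6:32000146-32000245, plus strand: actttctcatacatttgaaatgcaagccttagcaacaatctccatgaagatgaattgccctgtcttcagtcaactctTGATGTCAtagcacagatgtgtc
1700001K19Rik, chr12:111920830-111920929, minus strand: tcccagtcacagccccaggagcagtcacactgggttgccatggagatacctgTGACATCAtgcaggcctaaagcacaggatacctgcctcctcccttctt
4933422H20Rik, chr11:115301759-115301858, plus strand: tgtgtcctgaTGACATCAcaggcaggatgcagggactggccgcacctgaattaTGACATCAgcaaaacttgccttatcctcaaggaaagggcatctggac
4921530L21Rik, chr14:96280385-96280484, plus strand: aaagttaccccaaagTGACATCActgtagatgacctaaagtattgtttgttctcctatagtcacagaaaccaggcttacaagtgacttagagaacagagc
1700008A04Rik, chr11:32724606-32724705, minus strand: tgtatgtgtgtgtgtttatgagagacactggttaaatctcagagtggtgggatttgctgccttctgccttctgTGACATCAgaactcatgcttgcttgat
4930584F24Rik, chr5:26819819-26819918, minus strand: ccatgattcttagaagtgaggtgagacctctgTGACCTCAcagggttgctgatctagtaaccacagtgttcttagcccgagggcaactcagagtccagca
1700125D06Rik, chr4:129168334-129168433, plus strand: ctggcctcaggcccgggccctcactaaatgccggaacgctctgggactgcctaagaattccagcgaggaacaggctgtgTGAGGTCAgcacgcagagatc
The 4 genes not printed here are 1700034E13Rik, 1700006E09Rik, 1700092M07Rik and 1700023F06Rik. 4933422H20Rik was the only one of the 25 with 2 copies.

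The start windows of the 25 genes also held few CpG. The median was 3 CpG per window (range 0 to 19), the same median as for the 56 genes without a Rik symbol at the same limits, against 11 over all protein-coding genes, 10 over all protein-coding Rik genes, 10 over the 20 Rik genes on by PND 14, and 21 over the protein-coding genes with at least 25 CPM at PND 28. At least 10 CpG were found in 3 of 25 genes (12%), in 12.5% of the 56 genes and in 54.0% of all protein-coding genes. GGGCGG, the core of the GC box bound by Sp1 and its relatives, was in none of the 25, in 10.7% of the 56 genes, in 43.4% of all protein-coding genes and in 7.32% of those with at most 6 CpG. A share of 7.32% can give none among 25 genes, so no lack of GGGCGG beyond the low CpG number is read. CCAAT (36% against 37.9%), TATAAA (12% against 13.4%), TGACG (16% against 23.3%) and GTTGCCA, part of the X box bound by RFX factors (8% against 4.25%), were each found in a share of the 25 closer to that of all protein-coding genes than GGGCGG was. In genes with at most 6 CpG the shares were 39.2% for CCAAT, 24.2% for TATAAA, 9.01% for TGACG and 4.81% for GTTGCCA. The 95% intervals of the word shares of 12% and 16% among the 25 ran from 2.55% to 31.2% and from 4.54% to 36.1%. Each contains the share of the same word in genes with at most 6 CpG, so no difference is read for either word. Words were searched on both strands and may overlap; TGACG lies within TGACGTCA.

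The 250 bases before the start are given for the 2 histone-like genes, which head the description of levels, and for 2610318N02Rik, 1 of the 3 genes with at least 10 CpG, with CpG in capitals.
1700054O13Rik, chrX:9423823-9424072, plus strand: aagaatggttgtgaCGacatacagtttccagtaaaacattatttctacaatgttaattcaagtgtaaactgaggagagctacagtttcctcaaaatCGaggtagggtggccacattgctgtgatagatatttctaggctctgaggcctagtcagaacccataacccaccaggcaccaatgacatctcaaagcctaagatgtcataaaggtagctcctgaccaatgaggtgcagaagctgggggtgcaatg
1700024P04Rik, chr13:99754521-99754770, minus strand: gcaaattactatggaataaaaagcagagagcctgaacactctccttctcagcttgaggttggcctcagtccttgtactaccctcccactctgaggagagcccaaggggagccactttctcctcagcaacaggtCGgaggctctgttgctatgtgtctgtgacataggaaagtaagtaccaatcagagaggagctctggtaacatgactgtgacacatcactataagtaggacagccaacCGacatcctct
2610318N02Rik, chr16:17125200-17125449, minus strand: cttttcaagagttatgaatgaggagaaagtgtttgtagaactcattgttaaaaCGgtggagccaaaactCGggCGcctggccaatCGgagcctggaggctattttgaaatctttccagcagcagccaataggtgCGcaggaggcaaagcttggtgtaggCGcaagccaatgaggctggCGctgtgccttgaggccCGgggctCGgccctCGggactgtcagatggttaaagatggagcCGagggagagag
The other 2 genes with at least 10 CpG were 1700125D06Rik (19) and 4932412H11Rik (15), and 4932441B19Rik was the only gene with no CpG in the window.

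**Figure D2:**
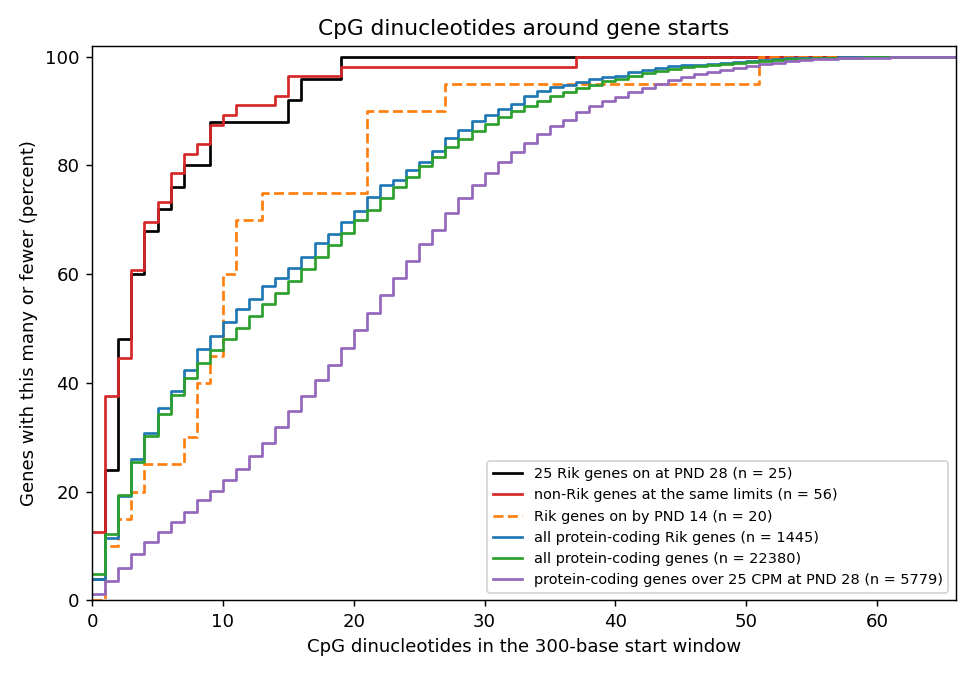
Cumulative share of genes (vertical axis, percent) by the number of CpG dinucleotides in the 300-base window around the annotated start (horizontal axis). The curve of the 25 Rik genes runs with that of the 56 genes without a Rik symbol at the same limits (median 3 in both), left of all protein-coding genes (median 11).

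As a sum, the 25 genes accounted for 1271 CPM in PND 28 mouse 1 and 1397 CPM in PND 28 mouse 2, against 49.5 and 36.1 CPM in the 2 PND 21 mice. Earlier sums were 6.86 and 7.26 CPM at PND 17, 68.4 and 4.88 CPM at PND 14, and 4.56 and 3.98 CPM at PND 7. The mean level at PND 28 ranged from 26.6 CPM (1700016C15Rik) to 88.4 CPM (1700034E13Rik) with a median of 51.5 CPM. Per length the range was 11.1 to 183 RPKM (reads scaled by exon length and by mapped reads) with a median of 46.7 RPKM, and the order changed: 4922505E12Rik ranked 3rd in CPM and 16th in RPKM, while 1700042G07Rik ranked 8th and 2nd. The mean over the PND 28 mice was 7.80 to 259 times the mean over the PND 21 mice, with a median ratio of 34.3.

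**Figure D3:**
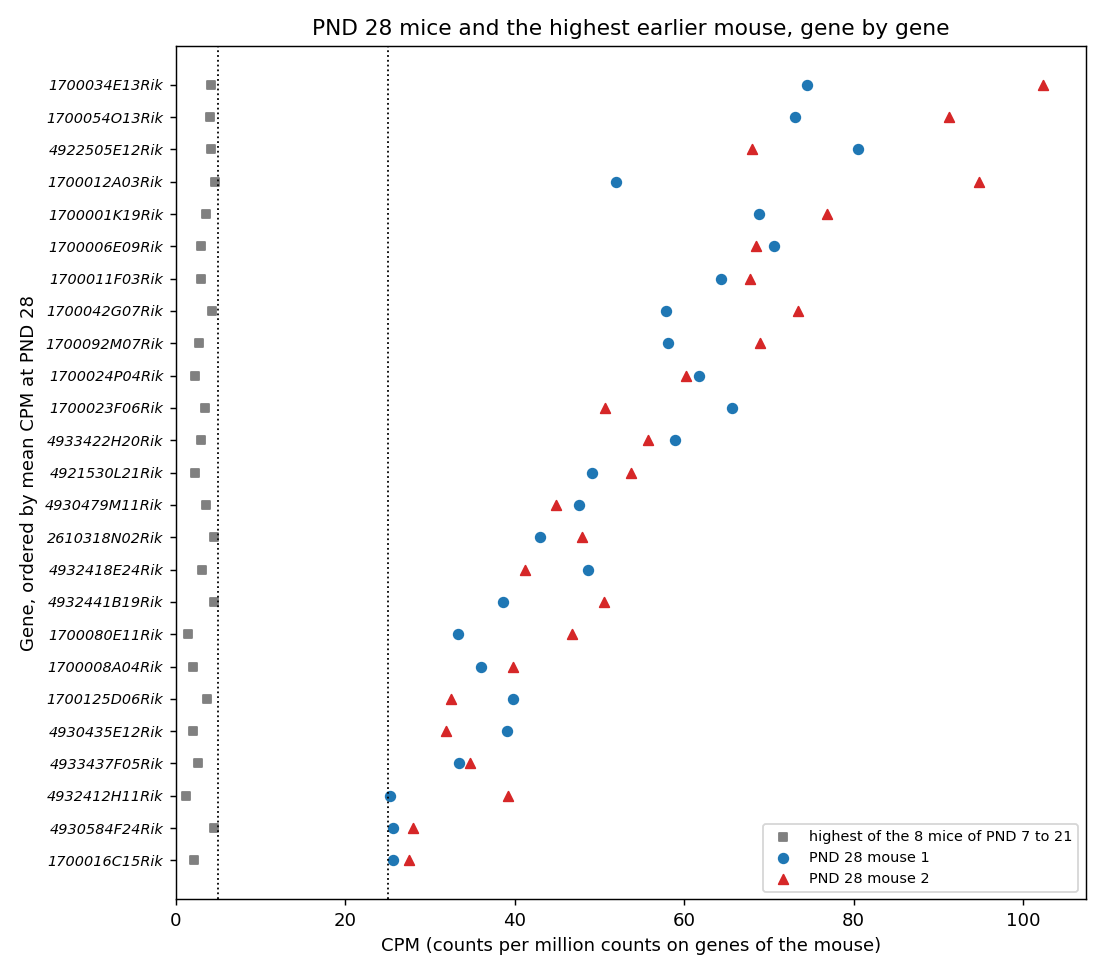
CPM of each of the 25 Rik genes in the 2 PND 28 mice (circles and triangles) and in the highest of the 8 mice of PND 7 to 21 (grey squares), with dotted lines at the 5 and 25 CPM limits of the selection. The PND 28 mice lie closest to the lower limit for 4932412H11Rik, 4930584F24Rik and 1700016C15Rik, and differ most for 1700012A03Rik (52.0 and 94.7 CPM).

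Among the most abundant genes, 2 encode histone-like proteins, the class of packaging proteins that is exchanged in elongating spermatids. 1700054O13Rik (chrX:9424073-9424626, plus strand, 1 exon) is now H2ap, an H2A-like histone gene and the only X-linked gene of the 25. It stood at 73.0 and 91.2 CPM at PND 28, 2.74 and 3.98 at PND 21, 0.442 and 0 at PND 17, 2.82 and 0.418 at PND 14, and 0.104 and 0 at PND 7. The X chromosome is silenced during meiosis in male germ cells. Another X-linked Rik gene on the same strand 2202 bases away, 4930557A04Rik, missed the selection with 23.2 CPM in PND 28 mouse 1 and 28.9 CPM in mouse 2. 1700024P04Rik (chr13:99754045-99754520, minus strand, 1 exon) is now H2bl1, an H2B variant of the subacrosomal region of spermatids. Its values were 61.7 and 60.2 CPM at PND 28, 2.24 and 1.43 at PND 21, 0.147 and 0 at PND 17, 2.18 and 0.139 at PND 14 and 0 in both PND 7 mice. These were the only single-exon genes of the 25.

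Genes named for the flagellum or for coiled-coil proteins formed the next group. 1700006E09Rik (chr11:101848370-101853570, plus strand), now Cfap97d1, encodes a protein of the sperm flagellum. Its levels were 70.6 and 68.5 CPM at PND 28, 2.99 and 2.55 at PND 21, 0.369 and 0.250 at PND 17, 2.82 and 0 at PND 14 and 0 in both PND 7 mice. Its start lies 43 bases from that of Dusp3, a phosphatase gene on the opposite strand, which did not share the pattern: Dusp3 was at 25.4 to 37.6 CPM in the PND 7, 14 and 17 mice, 19.7 and 27.2 CPM at PND 21, and 52.5 and 48.7 CPM at PND 28. 4922505E12Rik (chr1:184677388-184679253, minus strand), now Ccdc185, was at 80.5 and 67.9 CPM at PND 28 and 0.996 and 0.796 CPM at PND 21. 4932418E24Rik (chr2:26127166-26150077, minus strand), now Ccdc187, was at 48.7 and 41.2 CPM at PND 28 and 0.498 and 0.478 CPM at PND 21. For both coiled-coil genes the highest mouse before PND 28 was PND 14 mouse 1, with 4.10 and 3.08 CPM. 1700023F06Rik (chr11:103060260-103069872, minus strand, 19 exons), now Efcab15 for its EF-hand calcium-binding domain, was at 65.7 and 50.7 CPM at PND 28 and 3.48 and 2.55 CPM at PND 21. It overlaps another gene on its strand, 4933400C05Rik (16.6 and 18.2 CPM at PND 28), so part of its reads may belong to either.

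Several genes are named only for their expression in testis or spermatids. 1700011F03Rik (chr6:70863081-70868921, minus strand), now Tex37, stood at 64.3 and 67.8 CPM at PND 28 and at 0.747 and 0.318 CPM at PND 21. 4930435E12Rik (chr16:38812318-38828862, minus strand), now Tex55, was at 39.1 and 31.8 CPM at PND 28 and 1.99 and 0.796 CPM at PND 21. 4921530L21Rik (chr14:96280485-96281994, plus strand), now Spertl, was at 49.2 and 53.8 CPM at PND 28 and 0.498 and 0.796 CPM at PND 21. Spertl had no count in 5 of the 8 earlier mice. 4932441B19Rik (chr13:65134366-65139312, plus strand), now Spata31d1c of the multi-copy Spata31 family, was at 38.6 and 50.5 CPM at PND 28 and at 1.99 and 0 CPM at PND 21. Family members with near-identical sequence can exchange reads. No 50-base stretch of its annotated coding transcripts, or of those of the other 24 genes, recurred unchanged in the coding transcripts of another gene. Only identical stretches were searched, so exchange with copies that differ slightly or lie outside annotated coding transcripts was not tested.

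Genes named for an enzyme or ligase fold were 1700080E11Rik (chr9:105045674-105047412, minus strand), now Nudt16l2 for its nudix fold, 4933437F05Rik (chr12:88562205-88574506, minus strand), now Noxred1 for an oxidoreductase domain, and 4933422H20Rik (chr11:115301859-115309584, plus strand), now Trim80 of the tripartite motif family. Nudt16l2 was at 33.3 and 46.8 CPM at PND 28 and had only 3 counts over both PND 21 mice, a pooled ratio of 131 with a 95% exact binomial interval for counting error of 44.7 to 639. Noxred1 was at 33.4 and 34.8 CPM at PND 28 and 0.249 and 1.27 CPM at PND 21, below the 2.003 CPM of PND 17 mouse 2. Trim80, the gene with 2 copies of TGACATCA, was at 58.9 and 55.7 CPM at PND 28 and 2.99 and 1.91 CPM at PND 21. In each of the 3 the PND 28 mice lay within 1.5 times of each other.

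Genes named for membrane proteins or repeats followed. 4930479M11Rik (chr7:31455741-31456610, minus strand), now Pmis2, is known for a sperm protein needed for migration into the oviduct. It was at 47.6 and 44.8 CPM at PND 28, 2.49 and 3.50 at PND 21, 0.811 and 1.75 at PND 17, 2.57 and 0.697 at PND 14, and 1.55 and 0 at PND 7. 1700008A04Rik (chr11:32718529-32724605, minus strand), now Smim23, a small integral membrane protein gene, was at 36.0 and 39.8 CPM at PND 28 and 1.99 and 0.796 CPM at PND 21. 1700125D06Rik (chr4:129168434-129169200, plus strand), now Fam229a, was at 39.8 and 32.4 CPM at PND 28 and 3.73 and 2.39 CPM at PND 21. Its start lies 168 bases from that of the spermatid kinase gene Tssk3 on the opposite strand, which was at 69.1 and 80.4 CPM at PND 28 and 11.7 and 6.21 CPM at PND 21, so both genes of the pair were highest at PND 28. 4932412H11Rik (chr5:3845173-3866596, plus strand), now Lrrd1 for leucine-rich repeats and a death domain, was at 25.3 and 39.2 CPM at PND 28. It overlaps Krit1 on the same strand, a gene at 52.4 to 92.6 CPM in all 10 mice, yet was at 0 to 1.24 CPM in the 8 earlier mice.

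The 8 genes that still carry the Rik symbol include the most abundant one. 1700034E13Rik, on chromosome 18, was at 74.5 and 102.3 CPM at PND 28, 3.48 and 0.796 at PND 21, 0.147 and 0.250 at PND 17, 4.10 and 0.139 at PND 14 and 0 in both PND 7 mice. It was also first per length, with 183 ± 41.1 RPKM (SD, n = 2), and 6378 bases away on the same strand Zfp474 was at 75.4 and 59.2 CPM at PND 28 and 9.96 and 7.96 CPM at PND 21. 1700012A03Rik (chr6:32000246-32008921, plus strand) was at 52.0 and 94.7 CPM at PND 28, 0.249 and 0.318 at PND 21, 0.369 and 0 at PND 17, 4.62 and 0 at PND 14 and 0 in both PND 7 mice. With 3 counts over both PND 21 mice its pooled ratio was 233 with a 95% exact interval of 79.3 to 1130, and PND 14 mouse 1, with 36 counts, lay above both PND 21 mice. This gene and 4932412H11Rik were the only 2 of the 25 whose PND 28 mice differed by more than 1.5 times. 1700001K19Rik (chr12:111905899-111920829, minus strand) was at 68.9 and 76.9 CPM at PND 28 and 2.99 and 1.59 CPM at PND 21.

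1700042G07Rik (chr4:115845977-115846895, plus strand) and 1700092M07Rik (chr19:8815208-8815715, plus strand) encode short proteins of 90 and 86 residues. Their levels per length were among the highest, at 173 ± 29.3 and 170 ± 20.8 RPKM (SD, n = 2), and in CPM they were at 57.9 and 73.4, and at 58.1 and 68.9. At PND 21 they were at 0.747 and 0.637, and at 1.24 and 1.27 CPM. 2610318N02Rik (chr16:17113492-17125199, minus strand), which contains the miRNA genes Mir130b and Mir301b, was at 42.9 and 48.0 CPM at PND 28, 4.48 and 4.30 at PND 21, 0.516 and 0 at PND 17, 3.08 and 0.279 at PND 14 and 0.414 and 3.69 at PND 7. It was the only one of the 25 with more than 2 CPM in a PND 7 mouse, and the 26 counts of that mouse came from both of its barcodes, with 11 and 15; that is the mouse with 66.2 CPM of Crisp1, and the part of epididymal transcripts in the value was not tested. 4930584F24Rik (chr5:26786614-26819818, minus strand) had the smallest ratio of PND 28 to PND 21, going from 4.48 and 2.39 CPM at PND 21 to 25.6 and 28.0 CPM at PND 28, a ratio of 7.80. 1700016C15Rik (chr1:179659945-179683455, plus strand) was at 25.6 and 27.6 CPM at PND 28 and 0.996 and 0.159 CPM at PND 21.

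Both PND 21 mice lay above both PND 17 mice in 20 of the 25 genes. Among all 16860 genes tested the share was 28.8%, but the selection capped both ages, so nothing is read from this count. PND 21 mouse 1 was above mouse 2 in 18 of 25. The share over all genes tested was not computed for this position, so nothing is read from it. In the PND 7 mice 15 of the 25 genes had no count at all, and in PND 14 mouse 2 11 had none. The highest earlier mouse was PND 14 mouse 1 in 13 genes, PND 21 mouse 1 in 10 and PND 21 mouse 2 in 2.

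PND 14 mouse 1 was above PND 14 mouse 2 and both PND 17 mice in all 25 genes, a position held by 46.3% of all genes tested. Its level was 2.87% to 10.1% of the mean PND 28 level of the same gene, with a median of 4.93%, and 0% to 2.48% in PND 14 mouse 2 with a median of 0.211%. Over the 56 genes without a Rik symbol at the same limits the median in PND 14 mouse 1 was 4.0%, and over the 7 chromatin genes of elongating spermatids it was 4.13%. The selection itself keeps this share low in the 25 and the 56 genes, because it held PND 14 mouse 1 under 5 CPM. Nothing is therefore read from the likeness of these medians. The counts per gene in that mouse ran from 9 to 36, and in 14 of the 25 genes at least 1 exon had more than 10 reads there. Such an exon was found in 3 genes in PND 21 mouse 1 and 2 genes in PND 21 mouse 2. None was found in PND 14 mouse 2 or either PND 17 mouse, where no gene had more than 11 counts. The exon numbers follow from the counts, so nothing further is read from them. All 7 chromatin genes of elongating spermatids were also higher in PND 14 mouse 1 than in PND 14 mouse 2, and the source of this signal was not tested.

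**Figure D4:**
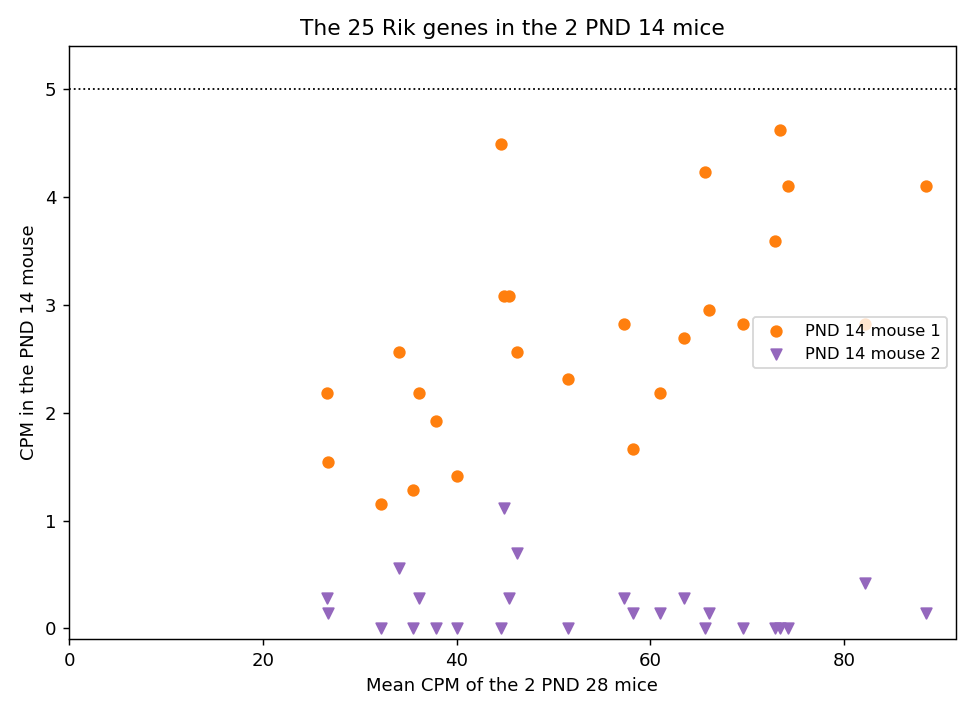
CPM of the 25 Rik genes in PND 14 mouse 1 (circles) and PND 14 mouse 2 (triangles) against their mean CPM in the PND 28 mice, with a dotted line at the 5 CPM limit. All 25 circles lie above the triangle of the same gene, between 1.15 and 4.62 CPM.

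Without PND 14 mouse 1 the same limits selected 30 Rik genes, the 25 and 5 more: 1700057K13Rik, 4933402P03Rik, 4933407P14Rik, 4930407I10Rik and 1700001C19Rik. These 5 were excluded by 5.13 to 8.72 CPM in that mouse alone. They were more abundant than most of the 25, at 79.3 to 131 CPM in the PND 28 mice, and 4933407P14Rik at 108 and 114 CPM and 1700057K13Rik at 100.2 and 131 CPM would have led the list.

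At the PND 28 limit the lower PND 28 mouse was at 25.3 CPM for 4932412H11Rik and at 25.6 CPM for both 1700016C15Rik and 4930584F24Rik. Just outside it were 4930557A04Rik at 23.2 CPM, 4933425O20Rik at 22.9 CPM and 1700020C07Rik at 22.0 CPM. At the early limit the highest earlier mouse was at 4.62 CPM for 1700012A03Rik, 4.49 CPM for 4932441B19Rik and 4.48 CPM for 2610318N02Rik. Just outside it were 1700057K13Rik at 5.13 CPM, 1700001C19Rik at 5.26 CPM and A730037C10Rik at 5.72 CPM, the last in PND 21 mouse 1.

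Rik genes made up 30.9% of the 81 protein-coding genes that met the limits, 6.46% of all protein-coding genes and 7.54% of those with at least 25 CPM in both PND 28 mice. The most abundant of the 56 genes without a Rik symbol were Prss37, a protease-like gene needed for male fertility, at 129 ± 2.05 CPM at PND 28 (SD, n = 2), and Fscn3, a testis fascin that bundles actin, at 111 ± 1.08 CPM. Cdrt4, Fam71a and Fam166a followed at 103 ± 10.2, 95.9 ± 9.38 and 94.96 ± 0.240 CPM. The highest of the 25 Rik genes, 1700034E13Rik, stood at 88.4 ± 19.7 CPM.

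Genes of late spermatids with known roles give the setting in which the 25 genes were low or high. In edgeR's quasi-likelihood test over 16860 genes (adjusted p below 0.05 and at least 2-fold), 1242 genes (7.37%) were higher and 50 (0.297%) lower at PND 28 than at PND 21, and 1566 (9.29%) were higher and 177 (1.05%) lower at PND 21 than at PND 17. Scaled by library totals the counts were 822 and 113 in PND 21/28 and 1282 and 342 in PND 17/21. Of the 53 late spermatid genes, 32 were higher in PND 21/28 and none lower, and 36 were higher in PND 17/21 and none lower. The median log2 fold change over the list was 2.83 in PND 21/28 and 2.47 in PND 17/21, against 0.03 and 0.00 over all genes tested. The number of calls depended on each single mouse: in PND 21/28 it fell to 9 without PND 21 mouse 1, 6 without PND 21 mouse 2, 17 without PND 28 mouse 1 and 21 without PND 28 mouse 2, the lone mouse being assumed to vary like the other groups.

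The groups of that list differed in how much of their PND 28 level was present at PND 21. All 7 chromatin genes were higher in PND 21/28, among them Tnp2 with a log2 fold change of 7.20 ± 0.94 (SE, edgeR adjusted p = 0.00194) and H1fnt, a linker histone, with 5.86 ± 0.87 (edgeR adjusted p = 0.00335), and 2 of 7 were higher in PND 17/21. The chromatin genes not called in PND 17/21 had log2 fold changes of 1.65 (Tnp2) to 3.58 (H1fnt). Calls by group come only from the fit of all 10 mice, in which the differing PND 14 mice enter the estimate of spread. Over the whole list, leaving out PND 14 mouse 1 gave 35 genes higher in PND 21/28 and 43 in PND 17/21. The summed level of the chromatin genes was at 1.58% and 1.45% of the PND 28 mean in the PND 21 mice, with a per-gene median of 0.777%. The 25 Rik genes stood at 3.71% and 2.71% in the same mice (median 2.92%), a value the selection itself keeps low. Tail and midpiece genes were higher in 13 of 17 in PND 21/28 and 14 of 17 in PND 17/21, and stood at 26.0% and 15.7% (median 13.3%). Acrosome and fertilization genes were higher in 6 of 11 and 10 of 11, and stood at 56.7% and 43.3% (median 28.4%). Kinases and phosphatases were higher in 4 of 8 and 5 of 8, and stood at 49.9% and 39.8% (median 18.4%), a sum led by the calcineurin subunit genes Ppp3r2 and Ppp3cc. Transcription factors and coactivators, which include Crem, were higher in 2 of 10 and 5 of 10, and stood at 77.2% and 63.1% (median 84.4%). Prm3, Fscn3 and Spaca4 are in both this list and the 56 genes without a Rik symbol, so their calls in PND 21/28 follow from the limits.

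**Figure D5:**
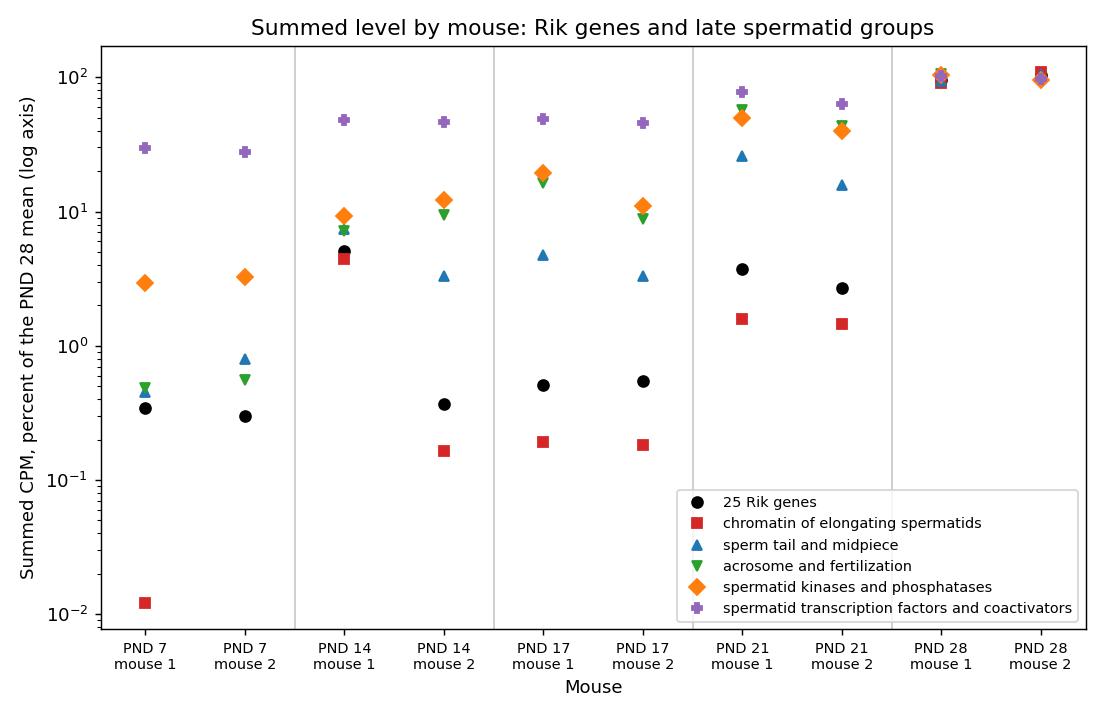
Summed CPM of the 25 Rik genes (black circles) and of the 5 groups of late spermatid genes in each mouse, as percent of their mean over the PND 28 mice on a log axis; the chromatin group was at 0 in PND 7 mouse 2 and has no point there. At PND 21 the Rik genes (3.71% and 2.71%) lie between the chromatin genes (1.58% and 1.45%) and the tail genes (26.0% and 15.7%), and in PND 14 mouse 1 they lie at 5.13%. The selection itself keeps the values of the Rik genes before PND 28 low.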

How the data were processed

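The authors sequenced ribosome-depleted total RNA with 50-base SOLiD 4 reads, aligned them to mm9 with LifeScope, dropped reads with more than 10 alignments and assigned unique reads to Ensembl genes. The deposited counts are whole reads per gene, the deposited RPKM are those counts scaled by exon length and mapped reads, and the authors' deposited number of exons with more than 10 reads per gene is also a count. Here the counts of the 2 barcodes of a PND 7 mouse were summed (RPKM averaged), and CPM was computed on summed counts. Symbols, biotypes and starts came from GENCODE M1 on mm9 and sequences from the NCBIM37 genome; RefSeq gave current symbols.

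Differential expression used edgeR 4.0.16 (quasi-likelihood, TMM, low-count filter, all 10 mice in 1 fit) in R 4.3.3 with Benjamini-Hochberg adjustment, called below 0.05 and at least 2-fold. Data were simulated for PND 21/28 from each gene's mean over all mice and the library sizes, with 200 of 16860 genes changed 4-fold. Every gene was given the same dispersion (spread between mice beyond counting error), 0.0726. On these data edgeR called 151 of the 200 and 3 unchanged genes. In data simulated in the same way for PND 17/21 it called 152 of the 200 and 8 unchanged genes. Genes with a larger spread were not simulated, so these numbers do not give the rates of missed or false calls in the real data. DESeq2 1.42.0, limma 3.58.1 on log2(RPKM + 1), other scalings and filters, single mice left out and a replicate block were alternatives. Nothing states more than that the 2 mice of an age are separate animals. The edgeR p-values rest on the spread between mice of the same age, estimated over all 10 mice and not only those compared. Intervals cover counting error only, since reads carry no molecular identifiers.

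Every gene that met the rule was named, with the 3 genes nearest each limit on either side, the 5 most abundant genes without a Rik symbol at the same limits, and genes of the late spermatid list. The members, limits and lists were chosen with earlier results of these data known. TGACATCA, TGACCTCA and TGACNTCA, and the alternatives without PND 14 mouse 1, were added after seeing the data.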

Additional observations from a re-analysis of the deposited data

How the results depend on the processing

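With 2 mice per age and 3994026 to 13559548 counts per mouse, levels under 1 CPM rest on a handful of reads, and no single mouse can be called an outlier by rule. The selection gave 31 genes on TMM scaled sizes (all 25 among them), 20 on totals without mitochondrial genes and small structural RNAs (15 of the 25) and 27 on RPKM (14 of the 25). Stricter or looser limits gave 4 genes under 2 CPM, 58 under 10 CPM, 12 at 50 CPM and 52 at 10 CPM; leaving out single mice gave 25 to 30. The median PND 28 level was 51.5 CPM, 61.4 on TMM scaled sizes, 62.8 on those reduced totals, 59.6 over the 30 genes chosen without PND 14 mouse 1, and 49.2 to 50.7 with 1 PND 28 mouse. The median ratio of PND 28 to PND 21 was 25.9 to 47.6 without single mice. The cause of these differences was not tested.

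The 1292 genes called in PND 21/28 became 1970 without a filter, 845 with limma on RPKM, and 312 to 579 without a single mouse of the comparison, fits in which 1 arm held 1 mouse. The genes lower at PND 28, 50 in the reported fit, were 289 without a filter, 178 with only the 4 mice compared and 24 with limma. In PND 17/21, 255 to 1414 genes were higher and 5 to 446 lower without single mice, 639 and 133 with limma, and 1991 and 486 without a filter. The list counts were 6 to 21 in PND 21/28 and 10 to 32 in PND 17/21 without single mice of the comparison. Without PND 14 mouse 1, 1411 genes were called and the list counts were 35 and 43. Shared mouse numbers correlated at -0.17 to 0.343 between ages and were not taken to pair the mice; the replicate block gave 1123 calls, and 33 and 33 list genes. Against genes with at least 25 CPM at PND 28, the share of the 25 minus that of the compared genes was -60.1 percentage points for GGGCGG and -3.84 for TGACGTCA. Nothing is read from the latter, a rare word that none of the 25 genes held. For GGGCGG the share in protein-coding genes with at most 6 CpG was 7.32%, so no lack beyond the low CpG number is read.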

Other observations

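The 8 genes without a Rik symbol that met the same limits and held TGACATCA before the start were Trp53tg5, Lelp1, Ubl4b, Cylc2, Fam154a, Rnf148, Cdrt4 and Tppp2, the last with 2 copies. All 9 copies lay between 87 and 14 bases before the start, a range like that of the 25 Rik genes (90 to 22 bases). Cylc2 encodes a basic protein of the sperm head cytoskeleton. These genes were picked out after their sequences were searched.

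Among the spermatid kinases, Tssk6, which is needed for DNA condensation in spermatids, was low until PND 21 in the manner of the 25 genes. Its levels were 0.249 and 1.43 CPM in the PND 21 mice and 70.0 and 99.4 CPM in the PND 28 mice, while Tssk3, beside 1700125D06Rik, was at 11.7 and 6.21 CPM at PND 21. PND 14 mouse 1 held 5.13 CPM of Tssk6 against 0.279 CPM in PND 14 mouse 2. Crem itself was at 9.24 CPM or more in every mouse and at 379 and 315 CPM at PND 28.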
